A study of Homo sapiens with 4 samples.

Results

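In 1 control library of a ribosome profiling experiment on melanocytes, 108 genes were read at levels that the other 3 libraries did not reach. Most of the 108 are genes of skeletal muscle, and smaller numbers are collagen and other matrix genes, pancreatic enzyme genes and a globin gene. They were chosen by their own values: the coding-sequence reads of each of 14355 gene names were counted per 1000000 coding-sequence reads of the library (CPM), and a gene was kept if it had at least 5 CPM in the first control library and at least 10 times its highest CPM in the other 3. The same rule turned on each of the other 3 libraries found 0 genes. The 108 genes were 0.752% of the gene names, and since the rule used all 4 libraries, nothing is read from that share, and the levels of these genes in the libraries are given as a description.

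The cells were Hermes 4B, human melanocytes from skin that were immortalised in culture, labelled as wild type and grown with TPA, endothelin-1, cholera toxin and stem cell factor. Ribosome footprints are the pieces of messenger RNA that ribosomes shield from RNase I, here held in place with cycloheximide at 100 ug/mL. The cells had received an siRNA that targets CDH3-AS1 or a control siRNA, at 25 to 50 nM. CDH3-AS1 is a noncoding RNA that runs antisense to the P-cadherin gene, CDH3. There was 1 library of each siRNA in batch 1 and 1 in batch 2, and the 4 libraries are called control siRNA 1, CDH3-AS1 siRNA 1, CDH3-AS1 siRNA 2 and control siRNA 2 after siRNA and batch. Nothing in the labels says that they came from separate cultures.

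All 4 libraries read as melanocytes. Of 10 melanocyte genes (MITF, TYR, DCT, PMEL, MLANA, TYRP1, SOX10, OCA2, SLC45A2 and GPR143), 10 had reads in each library, and their summed level was 23399 CPM in control siRNA 1, 21655 CPM in CDH3-AS1 siRNA 1, 31899 CPM in CDH3-AS1 siRNA 2 and 40329 CPM in control siRNA 2. Control siRNA 1 was the shallowest library, with 2034854 reads against 6759850 in CDH3-AS1 siRNA 1, 2858835 in CDH3-AS1 siRNA 2 and 5994485 in control siRNA 2. In coding sequence, 3 reads of a gene are worth 1.63 CPM in control siRNA 1, 0.473 CPM in CDH3-AS1 siRNA 1, 1.15 CPM in CDH3-AS1 siRNA 2 and 0.533 CPM in control siRNA 2. These levels serve as a floor that was set for each library. Genes with fewer reads are still counted as read, but their levels are poorly measured.

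Skeletal muscle fibres are giant cells packed with sarcomeres, in which myosin filaments pull on actin filaments when calcium is released from the sarcoplasmic reticulum. Slow fibres use a beta-type myosin heavy chain, myoglobin and oxidative metabolism. Fast fibres use other myosins, a fast calcium pump and more glycogen breakdown, and most of the contractile proteins exist as separate fast and slow gene products. The acinar cells of the pancreas make digestive enzymes and their precursors in bulk, and fibroblasts make the collagens of tendon, fascia and skin. A melanocyte is known for none of these programmes. Some collagen genes were still read in all 4 libraries, such as COL11A1 with 326 reads in control siRNA 1 and 1415 in CDH3-AS1 siRNA 1.

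Promoters of 4 of the genes are printed here as examples of short motifs that were searched in the gene groups. MEF2 factors are muscle transcription factors that bind A/T-rich sites, the muscle bHLH factors bind E-boxes such as CAGCTG, and PTF1A, a bHLH factor of acinar cells, also binds E-boxes. TTN encodes titin, the molecular spring of the sarcomere, and its window lies at chr2:178807374-178807673 on the minus strand. KLHL40, a stabiliser of thin-filament proteins, has its window at chr3:42685287-42685586 on the plus strand. CPA1 encodes the pancreatic enzyme carboxypeptidase A1, at chr7:130380244-130380543 on the plus strand, and PRSS1 encodes cationic trypsinogen, at chr7:142749222-142749521 on the plus strand. The windows are from RefSeq on GRCh38.p14 and run from 250 bases before to 50 bases after the gene start, 5′ to 3′ on the gene's strand. Capitals mark MEF2 sites and E-boxes of the CAGCTG and the CACCTG kind on either strand, and TATAAA.
TTN: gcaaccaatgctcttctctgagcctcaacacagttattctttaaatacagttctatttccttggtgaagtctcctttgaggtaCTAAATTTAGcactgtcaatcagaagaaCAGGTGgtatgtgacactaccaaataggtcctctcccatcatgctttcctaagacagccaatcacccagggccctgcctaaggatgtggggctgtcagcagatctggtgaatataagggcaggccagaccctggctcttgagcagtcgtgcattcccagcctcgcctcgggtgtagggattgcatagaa
KLHL40: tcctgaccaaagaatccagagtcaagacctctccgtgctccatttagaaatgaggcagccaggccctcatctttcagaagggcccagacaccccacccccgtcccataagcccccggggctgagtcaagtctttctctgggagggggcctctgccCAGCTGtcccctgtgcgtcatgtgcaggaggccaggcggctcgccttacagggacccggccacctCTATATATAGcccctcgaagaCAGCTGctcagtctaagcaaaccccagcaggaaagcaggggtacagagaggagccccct
CPA1: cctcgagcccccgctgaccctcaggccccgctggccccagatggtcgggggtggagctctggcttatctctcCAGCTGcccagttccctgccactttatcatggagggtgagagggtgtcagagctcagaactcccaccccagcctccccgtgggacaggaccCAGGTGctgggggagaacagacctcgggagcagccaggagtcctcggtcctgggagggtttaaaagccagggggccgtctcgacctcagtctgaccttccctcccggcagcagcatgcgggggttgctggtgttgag
PRSS1: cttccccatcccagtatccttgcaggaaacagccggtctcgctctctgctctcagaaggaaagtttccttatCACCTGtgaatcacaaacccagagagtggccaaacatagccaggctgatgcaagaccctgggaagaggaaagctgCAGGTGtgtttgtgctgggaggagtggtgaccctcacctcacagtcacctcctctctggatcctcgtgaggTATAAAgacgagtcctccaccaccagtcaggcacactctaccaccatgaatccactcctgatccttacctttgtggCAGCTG

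Windows of this kind were at hand for 73 of the 108 genes, and each motif was searched on both strands. The MEF2 site stood in 7 of 41 windows of the muscle genes (17.1%), in 0 of 6 windows of pancreatic enzyme genes, in 0 of 26 windows of the other genes chosen and in 0.593% of the 27305 windows of all genes. The 7 are TTN, SPEG, TRIM72, KLHL40, ALPK3, KLHL41 and HSPB7, and 6 of them are genes of fibre upkeep and attachment. CAGCTG stood in 18 muscle windows (43.9%), 2 pancreatic ones (33.3%), 4 other ones (15.4%) and 17.7% of all windows. The pancreatic ones with CAGCTG are CPA1 and PRSS1, both printed above. CACCTG stood in 6 of 6 pancreatic windows, 10 muscle windows (24.4%), 6 other ones (23.1%) and 20.6% of all windows. TATAAA was in 12 muscle windows (29.3%), 2 pancreatic ones (33.3%), 2 other ones (7.69%) and 12.0% of all, and the CArG box, the site of serum response factor, was in the window of ACTA1 alone among the genes chosen and in 1.29% of all. A match is a run of letters and not a shown binding site.

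Together the 108 genes took 13477 coding-sequence reads in control siRNA 1, 304 in CDH3-AS1 siRNA 1, 47 in CDH3-AS1 siRNA 2 and 113 in control siRNA 2. That is 0.731% of the coding-sequence reads of control siRNA 1 (95% interval 0.719 to 0.744%), or 7315 CPM, against 47.9 CPM in CDH3-AS1 siRNA 1, 18.0 CPM in CDH3-AS1 siRNA 2 and 20.1 CPM in control siRNA 2. The level in CDH3-AS1 siRNA 1 was 0.655% of that in control siRNA 1 (0.582 to 0.734%), in CDH3-AS1 siRNA 2 0.246% (0.181 to 0.328%) and in control siRNA 2 0.274% (0.226 to 0.330%). A read was found for 65 of the 108 genes in CDH3-AS1 siRNA 1, for 15 in CDH3-AS1 siRNA 2 and for 30 in control siRNA 2, and 37 genes had none in any of these 3. In a bulk library of footprints, fewer cells of a type, less RNA per cell and fewer ribosomes per message cannot be told apart. Where the reads of these genes came from was not tested. All intervals are exact binomial ones; without molecular identifiers they cover no more than counting error.

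The genes were unequal in weight. TTN and ACTA1 held 38.2% of the reads of the 108 genes in control siRNA 1 and the top 10 genes held 65.5%, while the median gene stood at 14.9 CPM and the lowest at 5.43 CPM, which was 10 reads. There were 24 genes with 100 reads or more and 47 with under 20, so for many genes the exact level is loose. Among the 71 genes with a read elsewhere, the level in control siRNA 1 over the highest other library ran from 10.4-fold (LINGO1) to 2007-fold (TTN), with a median of 50.5-fold. Just inside the limit of 10-fold were LINGO1 (10.4), HHEX (11.7) and ENO3 (14.9), and just outside it were FLNC (9.73) and LDB3 (9.48). FLNC and LDB3 encode the muscle proteins filamin C and ZASP. FLNC had 387 reads in control siRNA 1, 137 in CDH3-AS1 siRNA 1, 11 in CDH3-AS1 siRNA 2 and 11 in control siRNA 2. Just inside the limit of 5 CPM stood 7 genes at 5.43 CPM, and just outside it 10 genes at 4.88 CPM, among them the fast light chain gene MYL1, the mitochondrial creatine kinase gene CKMT2 and the elastase gene CELA1.

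By function, 62 of the 108 genes belong to muscle and 46 do not. The 62 muscle genes held 83.1% of the reads of the chosen genes in control siRNA 1 and stood at 6079 CPM there, against 34.3 CPM in CDH3-AS1 siRNA 1, 15.7 CPM in CDH3-AS1 siRNA 2 and 16.9 CPM in control siRNA 2. Of these, 30 genes of the thick and thin filaments and the titin system held 65.1% and 32 muscle genes outside it 18.0%. The 46 remaining genes held 16.9%. The grouping was made after the values were seen.

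**Figure D1:**
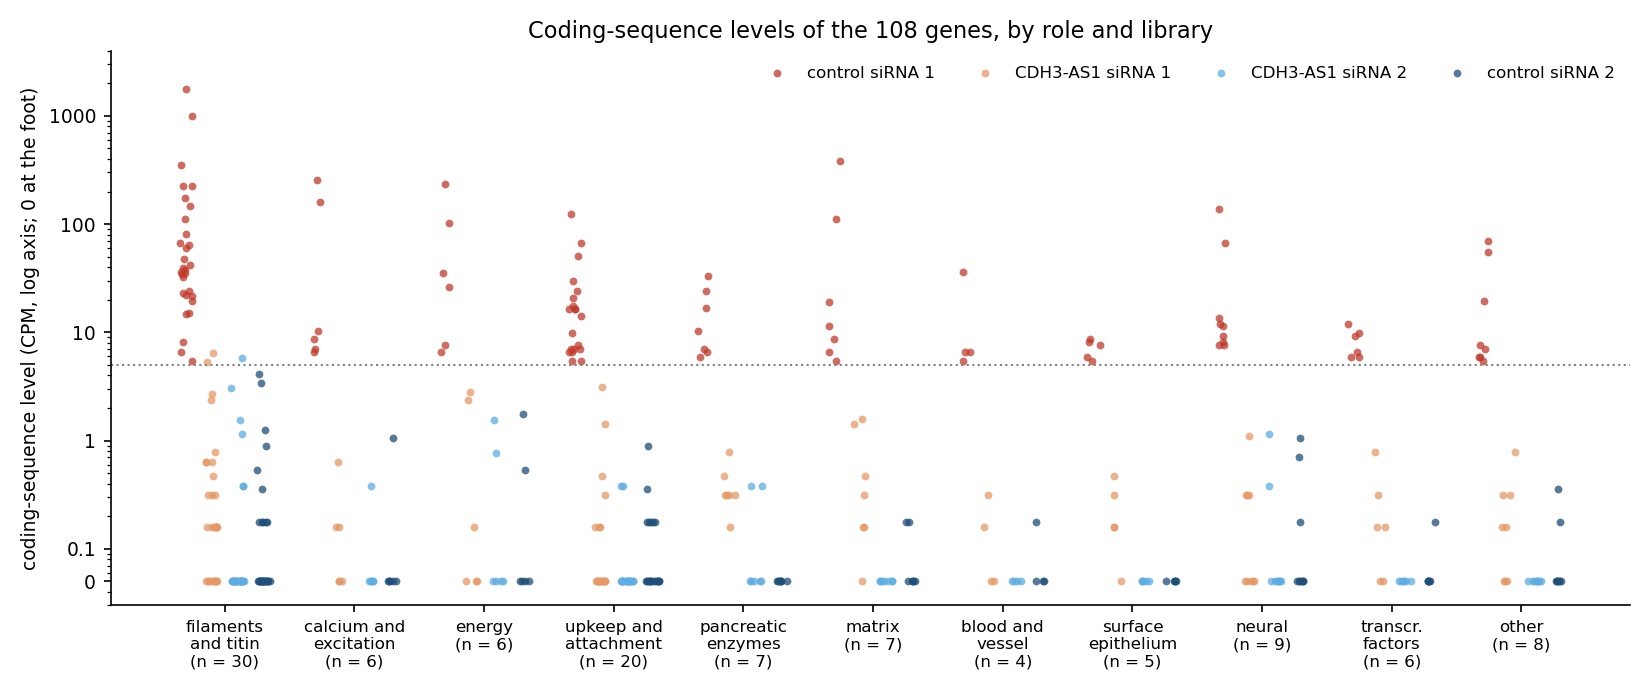
Each column is a functional group of the 108 genes and each point 1 gene in 1 library, coloured by library (control siRNA 1, CDH3-AS1 siRNA 1, CDH3-AS1 siRNA 2 and control siRNA 2). The vertical axis is the level in CPM on a log scale, with genes at 0 at the foot, and the dotted line is the limit of 5 CPM. All points of control siRNA 1 lie at or above 5.43 CPM, as the choice of genes fixes, and the highest is TTN at 1783 CPM.

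Beyond the sarcomere, 6 of the 108 genes take part in muscle excitation and calcium handling. RYR1, the calcium release channel of the skeletal sarcoplasmic reticulum, had 468 reads in control siRNA 1, 1 in CDH3-AS1 siRNA 1, 0 in CDH3-AS1 siRNA 2 and 0 in control siRNA 2, or 254 CPM in the first. ATP2A1, the calcium pump SERCA1 of fast fibres, had 293 reads in control siRNA 1, 4 in CDH3-AS1 siRNA 1, 0 in CDH3-AS1 siRNA 2 and 6 in control siRNA 2. Both were high in 1 library only and at a few reads or none in the rest. CACNA1S, the voltage sensor that is coupled to RYR1, had 19 reads in control siRNA 1, 0 in CDH3-AS1 siRNA 1, 0 in CDH3-AS1 siRNA 2 and 0 in control siRNA 2. SCN4A, the sodium channel of the muscle membrane, had 13 reads, and CASQ1, the calcium buffer of fast-fibre reticulum, had 12 reads, both in control siRNA 1 alone. MYLK2, a kinase of skeletal myosin light chains, had 16 reads in control siRNA 1, 1 in CDH3-AS1 siRNA 1, 1 in CDH3-AS1 siRNA 2 and 0 in control siRNA 2. The cardiac form of the release channel, RYR2, had 5 reads in control siRNA 1 and 4 in CDH3-AS1 siRNA 1, and the cardiac calsequestrin CASQ2 had 0 in control siRNA 1 against 3 in CDH3-AS1 siRNA 1, 1 in CDH3-AS1 siRNA 2 and 0 in control siRNA 2.

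The listed excitation and calcium genes held many that the rule did not pick. Of 27 such genes, 20 had a row in any of the tables, 18 had a read in control siRNA 1 and 3 were among the 108. CACNG1, TRDN, CLCN1, KCNJ11 and KCNA7, a channel subunit, the anchor triadin, the muscle chloride channel and a pair of potassium channels, had 2, 3, 2, 2 and 6 reads in control siRNA 1 and 0 in the other 3 libraries. These counts are at or near the floor of 3 reads. The junctophilins JPH1 and JPH2, which tie the reticulum to the surface membrane, had reads in all 4 libraries: 56 and 27 in control siRNA 1, 53 and 35 in CDH3-AS1 siRNA 1, 13 and 20 in CDH3-AS1 siRNA 2, and 42 and 13 in control siRNA 2.

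Energy genes were led by CKM, the cytosolic creatine kinase of muscle, with 436 reads (237 CPM) in control siRNA 1 and 0 in each of CDH3-AS1 siRNA 1, CDH3-AS1 siRNA 2 and control siRNA 2. With the floor of 3 reads in the shallowest of those 3 libraries this is at least 206-fold higher. PYGM, the glycogen phosphorylase of muscle, had 188 reads in control siRNA 1, 18 in CDH3-AS1 siRNA 1, 2 in CDH3-AS1 siRNA 2 and 3 in control siRNA 2. Unlike CKM it was read in all 4 libraries, and ENO3, the muscle enolase, was as well, with 65 reads in control siRNA 1, 15 in CDH3-AS1 siRNA 1, 4 in CDH3-AS1 siRNA 2 and 10 in control siRNA 2. MB, myoglobin, had 48 reads in control siRNA 1 alone. PPP1R1A, an inhibitor of protein phosphatase, had 14 reads in control siRNA 1 alone, and UCP3, a mitochondrial carrier of muscle, had 12 reads in control siRNA 1, 1 in CDH3-AS1 siRNA 1, 0 in CDH3-AS1 siRNA 2 and 0 in control siRNA 2. Of 23 listed energy genes with a row, 5 were among the 108. AMPD1 with 6 reads, GPD1 with 9, CKMT2 with 9 and CA3 with 5 were also read in control siRNA 1 alone, below the limit of 5 CPM.

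The fibre-upkeep and attachment group had 20 genes and 459 CPM in control siRNA 1, against 5.83 CPM in CDH3-AS1 siRNA 1, 0.766 CPM in CDH3-AS1 siRNA 2 and 2.13 CPM in control siRNA 2. DES, the intermediate filament desmin, had 229 reads in control siRNA 1, 2 in CDH3-AS1 siRNA 1, 0 in CDH3-AS1 siRNA 2 and 1 in control siRNA 2. EEF1A2, the translation elongation factor of muscle and neurons, had 124 reads in control siRNA 1, 20 in CDH3-AS1 siRNA 1, 1 in CDH3-AS1 siRNA 2 and 5 in control siRNA 2, and SPEG, a kinase of the reticulum junctions, had 93 reads in control siRNA 1, 9 in CDH3-AS1 siRNA 1, 1 in CDH3-AS1 siRNA 2 and 1 in control siRNA 2. The first of these was close to 0 outside control siRNA 1, and the other two had some reads in each library. XIRP1 and XIRP2, actin-binding proteins of the myotendinous junction and intercalated disc, had 30 and 38 reads in control siRNA 1 alone, and NRAP, an anchor of actin ends, had 44 there alone. CMYA5, a partner of desmin and dystrobrevin, had 55 reads in control siRNA 1, 3 in CDH3-AS1 siRNA 1, 0 in CDH3-AS1 siRNA 2 and 1 in control siRNA 2, and SYNM, an intermediate filament protein, had 30 reads in control siRNA 1 and 1 in CDH3-AS1 siRNA 1. MYO18B, IGFN1, ASB16 and CAND2 had 10 to 26 reads in control siRNA 1 and 0 in the other 3 libraries. TRIM72, a membrane-repair protein, had 30 reads in control siRNA 1 and 1 in control siRNA 2. KLHL40 with 14 reads, TRIM54 with 13, HSPB7 with 12 and the muscle chaperone gene UNC45B with 4 were at 0 in the other 3 libraries; UNC45B was below the limit. Of the listed genes with a row, 9 of 24 for translation, chaperones and turnover and 3 of 14 for membrane and attachment were among the 108. None of 9 muscle transcription factor and cofactor genes with a row was among the 108, and MYF6, a myogenic factor of mature fibres, had 1 read in control siRNA 1 and 0 elsewhere.

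Of the listed sarcomere genes with a row, 7 of 8 fast ones, 8 of 10 slow ones and 11 of 21 shared ones were among the 108, the shared ones including DES, described above. TTN had 3285 reads in control siRNA 1, 4 in CDH3-AS1 siRNA 1, 0 in CDH3-AS1 siRNA 2 and 5 in control siRNA 2, the highest CPM of all 108. Its coding sequence is very long, and per length the order changed: the authors' RPKM in control siRNA 1 was 877 for ACTA1, 187 for CKM and 19.2 for TTN. ACTA1, skeletal alpha-actin, had 1858 reads in control siRNA 1, 34 in CDH3-AS1 siRNA 1, 8 in CDH3-AS1 siRNA 2 and 23 in control siRNA 2. MYH7, the slow beta-myosin heavy chain, had 647 reads in control siRNA 1, 3 in CDH3-AS1 siRNA 1, 0 in CDH3-AS1 siRNA 2 and 1 in control siRNA 2, and MYH2, a fast myosin heavy chain, had 320 reads in control siRNA 1, 1 in CDH3-AS1 siRNA 1, 0 in CDH3-AS1 siRNA 2 and 1 in control siRNA 2. Both were high in control siRNA 1 and at 3 reads or fewer in each of the rest. NEB, nebulin, the ruler of thin filaments, had 415 reads in control siRNA 1, 5 in CDH3-AS1 siRNA 1, 0 in CDH3-AS1 siRNA 2 and 3 in control siRNA 2. The tropomyosin gene TPM2 was read in every library, with 205 reads in control siRNA 1, 17 in CDH3-AS1 siRNA 1, 4 in CDH3-AS1 siRNA 2 and 7 in control siRNA 2. TNNI1, slow troponin I, had 87 reads in control siRNA 1 alone, and ACTN3, the fast alpha-actinin, had 110 reads in control siRNA 1, 1 in CDH3-AS1 siRNA 1, 0 in CDH3-AS1 siRNA 2 and 0 in control siRNA 2. The Z-disc gene MYOT, myotilin, had 69 reads in control siRNA 1, 2 in CDH3-AS1 siRNA 1, 0 in CDH3-AS1 siRNA 2 and 0 in control siRNA 2, and TNNT1, slow troponin T, had 65 reads in control siRNA 1, 2 in CDH3-AS1 siRNA 1, 1 in CDH3-AS1 siRNA 2 and 0 in control siRNA 2. MYOZ1, a calcineurin-binding Z-disc protein, MYOM3, of the M-band, and the light chain gene MYL10 had 28, 27 and 10 reads in control siRNA 1 and at most 1 in any other library.

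Fast and slow partners could be set side by side in control siRNA 1 for 7 pairs, of which the fast partners together had 774 reads and the others 952, a fast share of 44.8% (42.5 to 47.2%). Read per length from the summed RPKM, the fast share was 54.5%, so the order of fast and slow depends on the scale and on the transcript models behind the RPKM. The fast partner led for troponin C, with 77 reads of TNNC2 against 43 of TNNC1 (64.2%, 54.9 to 72.7%), and for myosin-binding protein C, with 64 of MYBPC2 against 40 of MYBPC1 (61.5%, 51.5 to 70.9%). For alpha-actinin, ACTN3 had 110 reads against 150 of ACTN2 (42.3%, 36.2 to 48.6%), but ACTN2 is made in all fibre types and is no slow marker. Without that pair, left out after seeing the data, the fast share was 45.3%. For the myosin heavy chains, MYH1, MYH2 and MYH4 together had 436 reads against 647 of MYH7, a fast share of 40.3% (37.3 to 43.2%). Their RPKM of 73.3 against 54.7 ran the other way. Full-length coding sequences of these myosins are alike, at 5808 bases for MYH7 and 5826 for MYH2. But 249 of the 320 MYH2 reads were on a transcript of 2127 coding bases, which raises its RPKM. The reversed order thus rests on that transcript model and not on a difference in gene length. The regulatory light chains MYL11 and MYL2 had 66 and 60 reads and the essential ones MYL1 and MYL3 had 9 and 12, and for both the interval held an even share. The calsequestrins CASQ1 and CASQ2 had 12 and 0 reads. The calcium pumps were left out, because ATP2A2, the slow partner, had 1035 reads in control siRNA 1, 4460 in CDH3-AS1 siRNA 1, 2834 in CDH3-AS1 siRNA 2 and 4756 in control siRNA 2 and is made by many cell types. TNNI2 and TNNT3 had no row and were not analysed here, so the troponin I and troponin T pairs are outside the fast share. Their slow partners TNNI1 and TNNT1 had 87 and 65 reads in control siRNA 1, which the share therefore leaves out.

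**Figure D2:**
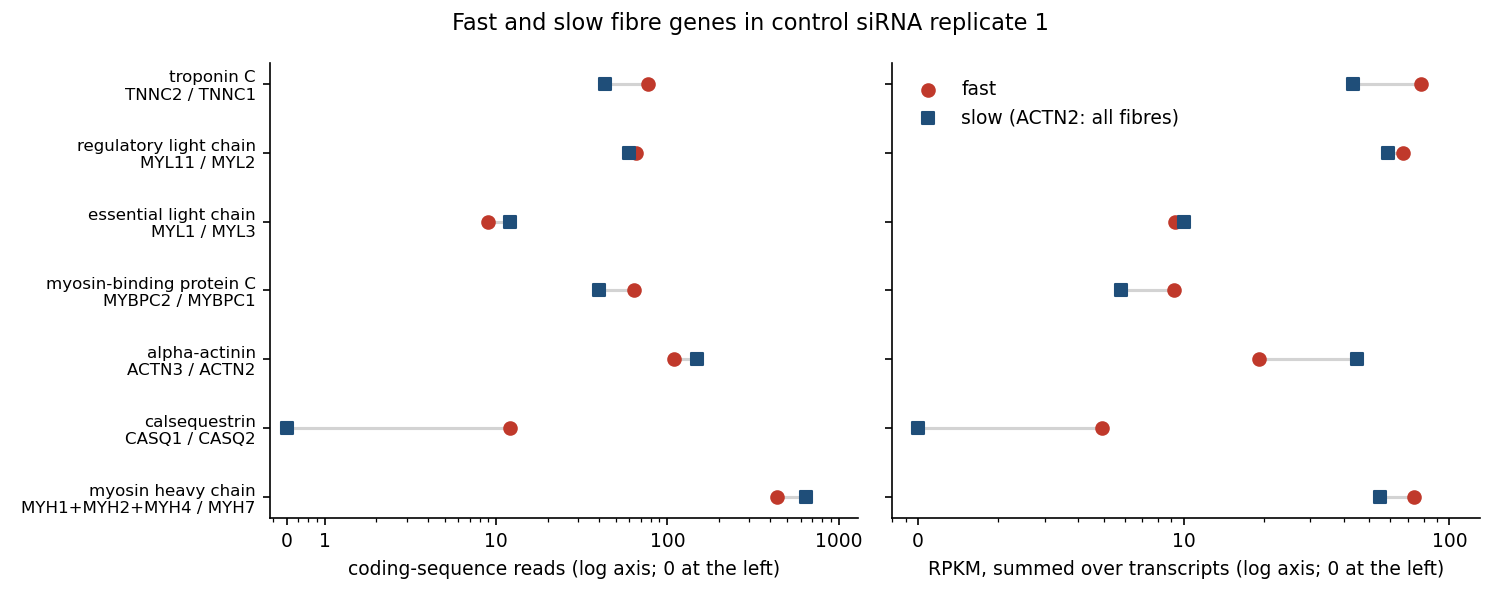
Each row is a fast and slow pair in control siRNA 1. The left panel gives coding-sequence reads and the right panel the authors' RPKM summed over transcripts, both on log axes with a value of 0 set at the left edge, fast partners as circles and their slow partners (for alpha-actinin, ACTN2 of all fibre types) as squares. The myosin heavy chain points change order between the panels, 436 and 647 reads against 73.3 and 54.7 RPKM. Most MYH2 reads, 249 of 320, were on a transcript with a short coding sequence of 2127 bases.

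Outside the contractile proteins, 14 fast-fibre genes and 14 slow-fibre genes had a row, and 5 fast ones (ATP2A1, CASQ1, MYLK2, PYGM and ENO3) and 3 slow ones (MB, HSPB6 and PPP1R1A) were among the 108. HSPB6, a small heat shock protein, had 32 reads in control siRNA 1, 1 in CDH3-AS1 siRNA 1, 0 in CDH3-AS1 siRNA 2 and 0 in control siRNA 2. Some enzymes known for their fast or slow fibre use are also used by melanocytes and are no guide here: ALDOA had 8465 reads in control siRNA 1, 21436 in CDH3-AS1 siRNA 1, 6789 in CDH3-AS1 siRNA 2 and 15106 in control siRNA 2. Genes of both fibre types were thus among the 108, outside the sarcomere as within it.

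Of the 1646 myosin heavy chain reads in control siRNA 1, MYH7 had 39.3%, MYH2 19.4%, the cardiac alpha form MYH6 16.5%, the embryonic form MYH3 7.41%, MYH7B 7.23%, MYH4 4.37%, MYH1 2.67%, the perinatal form MYH8 2.19% and the extraocular form MYH13 0.911%. Several of these genes are near-identical over long stretches. How the authors placed reads that fit several of them is not given in the sources used here, so single members are uncertain. On GRCh38.p14, MYH13, MYH8, MYH4, MYH1, MYH2 and MYH3 lie side by side on chromosome 17, and MYH6 (chr14:23381987-23408273) lies next to MYH7 (chr14:23412740-23435660). Of the 320 MYH2 reads, 249 were on a transcript with a coding sequence of 2127 bases and 71 on one of 5826 bases, so its RPKM depends on the transcript model.

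Of the listed heart and developing muscle genes, only myosins were among the 108. Of 11 heart genes with a row, MYH6 was the only one of the 108, and TNNI3, TNNT2, MYBPC3, NPPB and MYL4, which mark heart muscle, had 0 reads in control siRNA 1. ACTC1, cardiac alpha-actin, had 36 reads in control siRNA 1, 27 in CDH3-AS1 siRNA 1, 1 in CDH3-AS1 siRNA 2 and 4 in control siRNA 2. Of 6 genes of developing or regenerating muscle with a row, MYH3 and MYH8 were among the 108. The satellite cell factor PAX7 had 0 reads in all 4 libraries. Of 10 smooth muscle genes with a row only DES, shared with skeletal muscle, was among the 108, and CNN1 had 0 reads in all 4 libraries. ACTG2 stood at 16.8 CPM in control siRNA 1 and 3.47 CPM in CDH3-AS1 siRNA 1. It stood at 2.30 CPM in CDH3-AS1 siRNA 2 and 1.42 CPM in control siRNA 2. LMOD1 and KCNMB1 had 2 and 1 reads in control siRNA 1 alone. TAGLN was lower in control siRNA 1, at 7.06 CPM, than in CDH3-AS1 siRNA 1, at 24.3 CPM.

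Connective tissue genes were the next group by level. The 7 matrix genes stood at 541 CPM in control siRNA 1, against 4.10 CPM in CDH3-AS1 siRNA 1, 0 in CDH3-AS1 siRNA 2 and 0.355 CPM in control siRNA 2. COL1A1 and COL1A2, the chains of type I collagen, had 699 reads in control siRNA 1, 10 in CDH3-AS1 siRNA 1, 0 in CDH3-AS1 siRNA 2 and 0 in control siRNA 2 for COL1A1 and 204 reads in control siRNA 1, 9 in CDH3-AS1 siRNA 1, 0 in CDH3-AS1 siRNA 2 and 1 in control siRNA 2 for COL1A2. Both were read in CDH3-AS1 siRNA 1 too, at levels far below those of control siRNA 1. COL2A1, cartilage collagen, had 35 reads in control siRNA 1, 1 in CDH3-AS1 siRNA 1, 0 in CDH3-AS1 siRNA 2 and 0 in control siRNA 2, and COL6A3, a chain of the type VI collagen around muscle fibres, had 21 reads in control siRNA 1, 2 in CDH3-AS1 siRNA 1, 0 in CDH3-AS1 siRNA 2 and 1 in control siRNA 2. FBLN2, COL8A2 and TINAGL1, of elastic matrix and basement membrane, had 16, 12 and 10 reads in control siRNA 1. Of 16 fibroblast and tendon genes with a row 3 were among the 108. Of the rest, COL5A2 (82 reads), COL12A1 (36), COL5A1 (32) and MKX (15) were read in control siRNA 1 and in all 3 other libraries too, FMOD had 8 reads and LUM 4 in control siRNA 1, and DCN and PDGFRA had 0 there. Of 7 cartilage genes only COL2A1 was among the 108, and the proteoglycan gene ACAN also had 0 there, and none of 7 bone genes was among the 108. COL3A1 was not analysed here.

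Pancreatic acinar enzymes formed a group of 7. Their summed level was 104 CPM in control siRNA 1 (191 reads), against 2.68 CPM in CDH3-AS1 siRNA 1 (17 reads), 0.766 CPM in CDH3-AS1 siRNA 2 (2 reads) and 0 in control siRNA 2. PRSS3, a trypsinogen, had 61 reads in control siRNA 1, 5 in CDH3-AS1 siRNA 1, 0 in CDH3-AS1 siRNA 2 and 0 in control siRNA 2, CPA1 had 44 reads in control siRNA 1, 3 in CDH3-AS1 siRNA 1, 0 in CDH3-AS1 siRNA 2 and 0 in control siRNA 2, and PRSS1 had 31 reads in control siRNA 1, 2 in CDH3-AS1 siRNA 1, 0 in CDH3-AS1 siRNA 2 and 0 in control siRNA 2. All 7 were also read in CDH3-AS1 siRNA 1, the other library of batch 1, where the group stood at 2.58% of its level in control siRNA 1 (1.47 to 4.25%). The surface epithelium genes stood there at 3.08% (1.19 to 6.70%) on 7 reads, and the developmental transcription factors at 2.87% (1.27 to 5.69%) on 9 reads. The filament and titin genes stood at 0.467% (0.392 to 0.551%). The remaining groups ran from 0.212% for muscle calcium and excitation to 1.29% for muscle energy. The rule used these levels, so the order of the groups is a description. CEL, a lipase for cholesterol esters, had 19 reads in control siRNA 1, 2 in CDH3-AS1 siRNA 1, 1 in CDH3-AS1 siRNA 2 and 0 in control siRNA 2. CTRL, a chymotrypsin-like protease, CELA3B, an elastase, and CPB1, carboxypeptidase B1, had 13, 12 and 11 reads in control siRNA 1. PRSS1 and PRSS3 are near-identical in places and their split is uncertain.

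A wider list of 26 acinar genes, drawn up after the enzymes were seen, had 18 with a row. A read was found for 17 in control siRNA 1, 14 in CDH3-AS1 siRNA 1, 4 in CDH3-AS1 siRNA 2 and 2 in control siRNA 2, and the summed level was 131 CPM in control siRNA 1, 4.88 CPM in CDH3-AS1 siRNA 1, 1.92 CPM in CDH3-AS1 siRNA 2 and 0.888 CPM in control siRNA 2. PNLIP, pancreatic lipase, had 6 reads in control siRNA 1, REG1A 5, CLPS 3 and CELA1 9, under the limit of 5 CPM. INS, insulin, of the endocrine pancreas, had 0 reads in control siRNA 1 and 3 in CDH3-AS1 siRNA 1.

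The blood and vessel genes were led by globin. HBB, adult beta-globin, had 66 reads (35.8 CPM) in control siRNA 1 and 0 in the other 3 libraries, at least 31.2-fold higher over the floor. HBD had 5 reads, HBE1 3 and ALAS2, the first enzyme of haem synthesis in red cells, 3, again in control siRNA 1 alone. The erythroid list thus stood at 41.8 CPM in control siRNA 1 and at 0 in CDH3-AS1 siRNA 1, CDH3-AS1 siRNA 2 and control siRNA 2. VWF, von Willebrand factor of vessel walls, had 12 reads in control siRNA 1, 2 in CDH3-AS1 siRNA 1, 0 in CDH3-AS1 siRNA 2 and 1 in control siRNA 2, and the blood cell factors SPI1 and TAL1 had 12 and 10 reads in control siRNA 1. Of 4 erythroid and 5 endothelial genes with a row, 1 each (HBB and VWF) was among the 108. None of 9 leukocyte genes with a row was among the 108. HBA1 and HBA2 were not analysed here.

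The group of 9 genes with neural roles, drawn up after values were seen, was uneven. ADRA2C, the alpha-2C adrenergic receptor, had 256 reads (139 CPM) in control siRNA 1 and 0 in CDH3-AS1 siRNA 1, CDH3-AS1 siRNA 2 and control siRNA 2, at least 121-fold higher. MAST1, a microtubule-associated kinase of neurons, had 122 reads in control siRNA 1, 2 in CDH3-AS1 siRNA 1, 1 in CDH3-AS1 siRNA 2 and 6 in control siRNA 2. These 2 genes held most of the group's 506 reads. VSTM2A, ADCY2, SLC30A3, PRPH, DPP6 and NEURL1 had 14 to 25 reads in control siRNA 1, and LINGO1 had 22 reads in control siRNA 1, 7 in CDH3-AS1 siRNA 1, 3 in CDH3-AS1 siRNA 2 and 4 in control siRNA 2. Against this, none of 9 neuron genes and none of 6 glial genes with a row was among the 108: SNAP25 had 1 read in control siRNA 1 and NEFL and SYN1 had 0. Others were read in all 4 libraries. TUBB3 stood at 53.7 CPM in control siRNA 1, against 30.6 CPM in CDH3-AS1 siRNA 1 and 20.8 CPM in control siRNA 2. The glial gene CNP stood at 740, 563 and 249 CPM in the same order. SYT1 was lowest in control siRNA 1, at 4.34 CPM against 15.6 CPM in CDH3-AS1 siRNA 1.

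The remaining genes were few and mostly low. Surface epithelium was represented by CALML3, DMBT1, KRT79, MUC5B and LORICRIN, at 35.8 CPM together in control siRNA 1, 1.10 CPM in CDH3-AS1 siRNA 1 and 0 in CDH3-AS1 siRNA 2 and control siRNA 2. Of 9 keratinocyte genes with a row only LORICRIN was among the 108, and KRT14 and KRT1 had 1 and 0 reads in control siRNA 1. Developmental transcription factors numbered 6 (FOXE3, TBX15, HHEX, FOXQ1, FOXI3 and GBX1), at 49.4 CPM in control siRNA 1, 1.42 CPM in CDH3-AS1 siRNA 1, 0 in CDH3-AS1 siRNA 2 and 0.178 CPM in control siRNA 2; in mice TBX15 is known in fast glycolytic muscle. No gene of the fat, liver, hair follicle or melanocyte lists was among the 108, and PLIN1, of fat cells, had 0 reads in control siRNA 1.

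**Figure D3:**
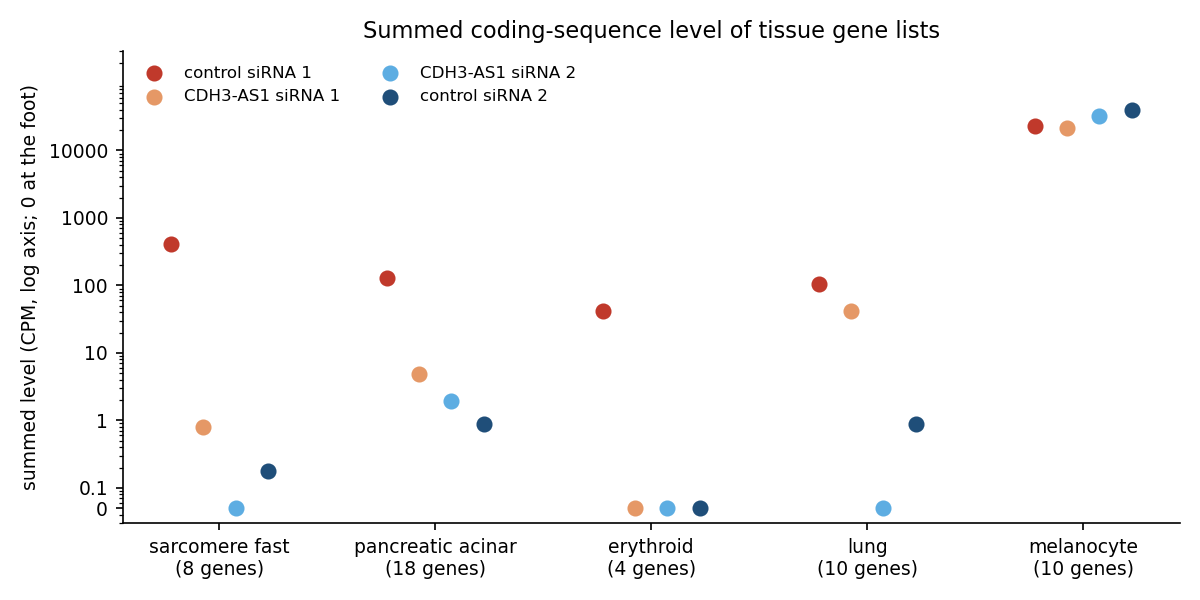
Each column is a list of marker genes for a tissue or cell type, and each point its summed level in CPM (log axis, 0 at the foot) in control siRNA 1, CDH3-AS1 siRNA 1, CDH3-AS1 siRNA 2 or control siRNA 2. The fast sarcomere list stands at 414 CPM in control siRNA 1, against 0.788 CPM in CDH3-AS1 siRNA 1, 0 in CDH3-AS1 siRNA 2 and 0.178 CPM in control siRNA 2, and the melanocyte list is high in all 4.

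A last group of 8 could not be placed. POTEJ, an actin-related gene with 129 reads in control siRNA 1, 0 in CDH3-AS1 siRNA 1, 0 in CDH3-AS1 siRNA 2 and 2 in control siRNA 2, ATP2A3, a calcium pump gene with 101 reads in control siRNA 1, 1 in CDH3-AS1 siRNA 1, 0 in CDH3-AS1 siRNA 2 and 1 in control siRNA 2, and GAPDHS, the sperm glyceraldehyde-3-phosphate dehydrogenase gene with 36 reads in control siRNA 1, 5 in CDH3-AS1 siRNA 1, 0 in CDH3-AS1 siRNA 2 and 0 in control siRNA 2, each closely resemble genes that are highly expressed elsewhere. Reads of such relatives can be assigned to them, and that they were read from their own messages was not tested. The others were NPIPA1, CLIC5, SEC14L3, CDC42BPG and ENSG00000243696, with 10 to 14 reads in control siRNA 1.

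The rule counted coding-sequence reads alone, which favours genes with few UTR reads, so the spread of reads over the message is a description. In control siRNA 1, the 108 genes had 363 reads in 5′ UTRs, 13477 in coding sequences and 221 in 3′ UTRs, so 2.58% lay in the 5′ UTR (2.33 to 2.86%) and 1.57% in the 3′ UTR (1.37 to 1.79%). The other genes of control siRNA 1 had 6.0% and 3.49%, or 6.05% and 2.67% without SLC46A1, 1 gene with 17002 reads in its 3′ UTR, and all genes but these had 3.81% and 2.28% in CDH3-AS1 siRNA 1, 7.09% and 1.62% in CDH3-AS1 siRNA 2 and 5.08% and 1.03% in control siRNA 2. Of the 53 with at least 30 coding reads, 32 had no UTR read (60.4%, 46.0 to 73.5%), against 1221 of 7441 other genes in control siRNA 1 (16.4%, 15.6 to 17.3%). Among genes with 30 to 99 coding reads, 19 of 29 had none (65.5%, 45.7 to 82.1%), against 797 of 3513 other genes (22.7%, 21.3 to 24.1%). These genes had a median of 44 coding reads and the other genes 56. The 7 pancreatic genes had 191 coding reads and 0 UTR reads.

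UTR reads rested on few genes. TCAP, telethonin, had 97 reads in its 3′ UTR and 41 in its coding sequence and was the only gene of the 108 with more 3′ UTR than coding reads. NEB had 77 reads in the 5′ UTR, ACTN2 49 and COL1A1 48, and TTN had 74 there, on a transcript with 0 coding reads. MB had 27 in the 5′ UTR. Of the 108 genes, 77 had no UTR read.

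**Figure D4:**
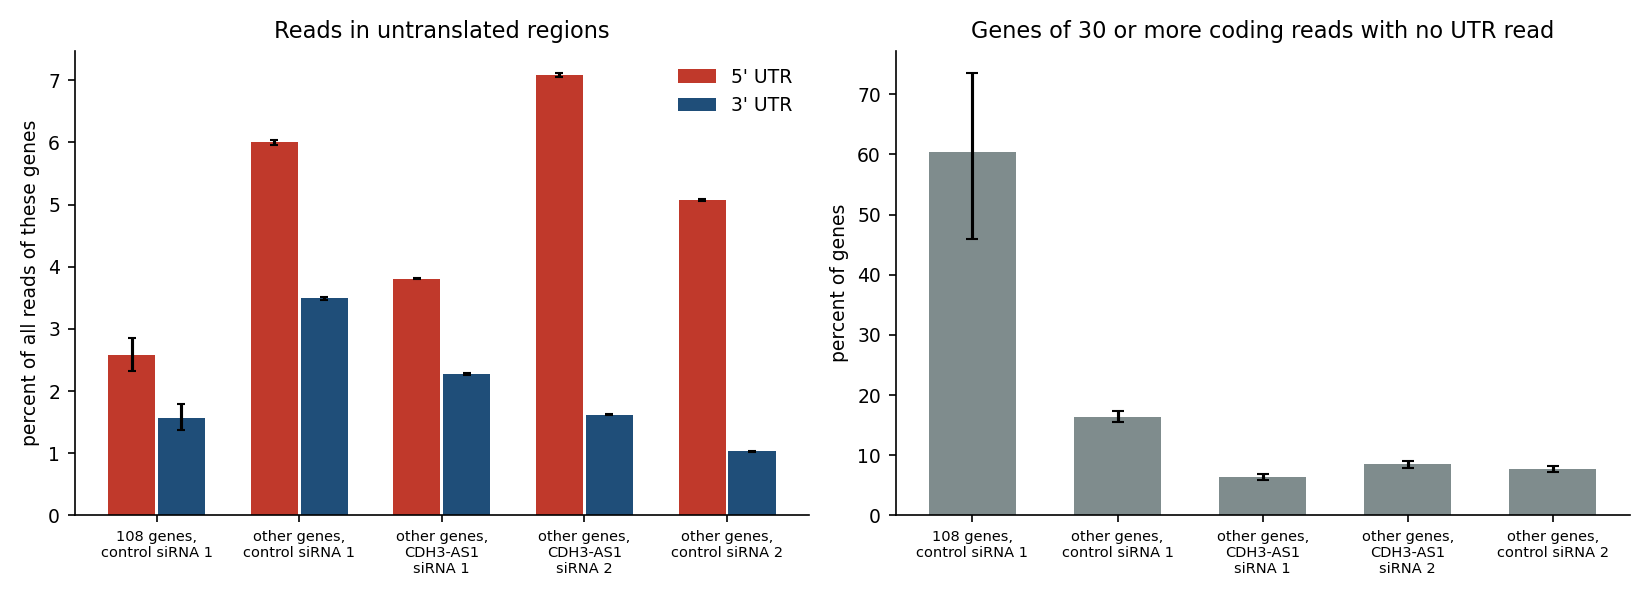
The left-hand bars give the share of reads in 5′ and 3′ UTRs in percent, for the 108 genes in control siRNA 1 and for the other genes in control siRNA 1, CDH3-AS1 siRNA 1, CDH3-AS1 siRNA 2 and control siRNA 2. The 108 genes have 2.58% in the 5′ UTR and 1.57% in the 3′ UTR, and the other genes of the same library have 6.0% and 3.49%. The right-hand bars give the percentage of genes with 30 or more coding reads that have no UTR read, 60.4% for the 108 genes and 16.4% for the other genes of control siRNA 1; whiskers are 95% intervals.

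The genes also enter the comparison of CDH3-AS1 siRNA with control siRNA. The rule chose them for their height in 1 library of the control group, so calls of these genes as lower with CDH3-AS1 siRNA restate that choice and support nothing. edgeR's quasi-likelihood test with Benjamini-Hochberg adjustment was run on the 10469 genes that passed a filter on low counts, with no term for batch. edgeR called 0 genes (0% lower), against 225 with an unadjusted p under 0.05. DESeq2, also with no term for batch, called 2, of which 1 was lower (0.00955%) and none was among the 108. The filter kept 5 of the 108 genes (among them ACTA1, EEF1A2, PYGM and TPM2). The median log2 fold change of CDH3-AS1 siRNA over control siRNA was -4.56 for these 5 and -0.03 for all genes tested. With the batch as a replicate block, 170 genes were called, 73 of them lower (0.697%), these 5 included. With no filter on low counts 47 of 13861 genes were called lower (0.339%), 44 of them among the 108. Such p-values measure only the spread between the 4 samples, which may be technical.

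Without control siRNA 1, 7 of the 108 genes could be tested and 0 were called by edgeR, which gave 762 of 10931 genes an unadjusted p under 0.05 and 0 of these 7. Their median log2 fold change was 0.92 in that fit. ACTA1 then stood at 0.15, EEF1A2 at 1.22, PYGM at 1.91 and TPM2 at 0.87. The negative fold changes of these 4 genes in the fit of all libraries thus turned positive without control siRNA 1. That fit sets a batch 2 control library against CDH3-AS1 libraries of both batches, so siRNA and batch cannot be told apart in it. Within batch 2, on few reads, ACTA1 (3.07 against 4.09 CPM) and EEF1A2 (0.383 against 0.888 CPM) were lower with CDH3-AS1 siRNA. PYGM (0.766 against 0.533 CPM) and TPM2 (1.53 against 1.24 CPM) were higher.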

How the data were processed

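Ribosome footprints of 4 Hermes 4B libraries were analysed from the tables that the authors deposited. Per the file headers, these tables give, for each of 38455 transcripts, a read count for the coding sequence and for each UTR, and the authors' RPKM of the same regions; only transcripts with at least 1 read are listed, so a gene without a row in any table was not analysed here. RPKM, which the authors deposited, was found to be scaled by region length and by all reads of a library, UTRs included. The submitters' processing notes name hg38 and DESeq2. How reads were aligned and counted, on which annotation release and with what use of strand, is not given in the sources used here.

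Coding-sequence counts were summed by gene name and scaled to CPM. The members and lists were chosen with earlier results of these data known, and the functional groups, the acinar list and the lung list after values were seen. Of 27 lists, 18 held a member and 9 none; 265 of their 370 genes had a row. The rule for named genes takes the 30 members with the highest CPM, the members in a list, both genes of each fast and slow pair, the genes next to each limit, up to 15 further members by CPM and defining markers at 0 reads; other genes named were chosen after their values were seen. Of the 108 members, 107 matched the RefSeq gene table of GRCh38.p14. edgeR 4.0.16 in R 4.3.3 (TMM, filterByExpr with a minimum count of 10 and total of 15, threshold 0.05) was run on the counts, with DESeq2 1.42.0, another scaling, no filter, a replicate block and each library left out as alternatives. The labels give same-numbered libraries a shared batch, and their deviations from the group means correlated (r = 0.58 over 10469 genes). The libraries are therefore paired by number, but the main edgeR fit did not use the pairing. Only the fit with the replicate block did. Intervals are 95% Clopper-Pearson intervals from scipy 1.17.1. Counts per library and their floors are given in the text. The edgeR script was tested on simulated data. A few genes enter the counts and sums but are not reported here by name.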

Additional observations from a re-analysis of the deposited data

Results flagged for a closer look

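Outside the coding sequence, reads of 3 genes were far higher in control siRNA 1 than in the other libraries, a signal in columns that the comparison did not use. The 3′ UTR of SLC46A1 had 17002 reads in control siRNA 1, which is 0.836% of all its reads, against 2 in CDH3-AS1 siRNA 1, 0 in CDH3-AS1 siRNA 2 and 19 in control siRNA 2, while its coding sequence had 3 reads in control siRNA 1, 69 in CDH3-AS1 siRNA 1, 18 in CDH3-AS1 siRNA 2 and 29 in control siRNA 2. The 3′ UTR of TMEM74 had 300 reads in control siRNA 1, against 38 in CDH3-AS1 siRNA 1, 0 in CDH3-AS1 siRNA 2 and 14 in control siRNA 2. The 5′ UTR of SULF2 had 299 reads in control siRNA 1, against 4 in CDH3-AS1 siRNA 1 and 0 in both batch 2 libraries. What these reads are was not tested.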

How the results depend on the processing

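With a fold of 5, a fold of 20, the reads of all regions, or the transcript with the most coding reads, the number of genes was 126, 98, 118 and 106, against 108, and with a minimum of 10 CPM it was 63. Their summed level of 7315 CPM in control siRNA 1 was 7742 CPM with a fold of 5, 6999 CPM with a minimum of 10 CPM, 6490 CPM on the transcript with the most coding reads and 15718 CPM with all regions, where the 3′ UTR reads of SLC46A1 enter; 18 genes were added and 8 lost. Leaving out each other library in turn gave 110 to 127 genes and 7330 to 7855 CPM. The fast share of 44.8% was 54.5% per length, 41.2% on the transcript with the most coding reads and, in alternatives chosen after seeing the data, 52.6% without the myosin heavy chains (45.3% without the alpha-actinins), so it gives no stable order of fast over slow. Of genes called between the siRNAs, edgeR found 0, 170 with the replicate block and 52 with no filter, DESeq2 2, and leave-one-out fits 0 to 73. Genes of the 108 called lower were 0, with the replicate block 5, with no filter 44, and with a library left out 0 to 60, the highest without control siRNA 2. All these calls of the 108 genes as lower restate their choice by control siRNA 1 and support nothing. In the fit without control siRNA 1, the control group is a single library assumed to vary like the others. The same holds without control siRNA 2, where control siRNA 1 alone is the control group. In that fit the median log2 fold change was -7.84 for the 76 of the 108 genes tested and 0.03 for all 10386 genes. Depth limits genes with 10 to 20 reads, and near-identical genes limit single myosins, actins and trypsinogens.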

Other observations

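Lung genes were read in both batch 1 libraries. A list of 14 lung genes drawn up after values were seen had 10 with a row and stood at 106 CPM in control siRNA 1, 41.1 CPM in CDH3-AS1 siRNA 1, 0 in CDH3-AS1 siRNA 2 and 0.888 CPM in control siRNA 2. SFTPC, surfactant protein C of alveolar type II cells, had 126 reads in control siRNA 1, 170 in CDH3-AS1 siRNA 1, 0 in CDH3-AS1 siRNA 2 and 4 in control siRNA 2. SFTPB, surfactant protein B, had 31 and 34 reads in the batch 1 libraries (control siRNA 1 and CDH3-AS1 siRNA 1) and 0 in both of batch 2, and SLC34A2, a phosphate transporter of the same cells, 19 and 30 with 0 in batch 2. None of the lung genes was among the 108, since none met both limits of the rule. SFTPC stood at 68.4 CPM in control siRNA 1 and 26.8 CPM in CDH3-AS1 siRNA 1, less than 10-fold apart. NKX2-1, also in the lung list, stood at 3.80 CPM against 0.315 CPM and was below the limit of 5 CPM.

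At a minimum of 2 CPM in both batch 1 libraries and 10 times the batch 2 libraries there were 10 genes: BIK, CD74, CHI3L1, IL18BP, KCNN4, LGALS9, LYZ, SFTPB, SFTPC and SLC34A2. The same rule turned on batch 2 gave 7, which were ARL6IP1, HMGN5, MT-ATP6, MT-ATP8, MT-ND5, NOX5 and RBM8A. LYZ, lysozyme of macrophages and airway glands, had 18 reads in control siRNA 1 and 14 in CDH3-AS1 siRNA 1, and 0 in both batch 2 libraries.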
